A study of Arabidopsis thaliana with 30 samples.

Results

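The step from cotyledon-stage seed to mature green seed in Arabidopsis thaliana lacking normal LEC1 function was followed on 4 arrays, 2 of lec1-1 mature green seed and 2 of lec1-1 cotyledon-stage seed, out of 30 arrays in the series. The arrays were chosen by their titles alone. The gene LEAFY COTYLEDON1, abbreviated LEC1, codes for one NF-Y transcription factor subunit, and lec1-1 is a mutant allele of it in the Ws-0 background. Wild-type Ws-0 seed of the same stages (2 mature green and 2 cotyledon-stage arrays) served as the comparison, and plants of both genotypes were grown at 20 °C under continuous light. Lec1-1 seed at 24 hours after fertilization, at the globular stage and at the post-mature green stage, wild-type seed at 24 hours and at the post-mature green stage, and wild-type seedlings 3 days after imbibition (2 arrays each) were used to place genes in time. The embryo, seed coat and endosperm were hybridized together as whole seed, so that fewer cells of a type and less RNA per cell cannot be told apart. LEC1 itself was not analysed here, since no probe set was named for it, and the genotypes rest on the labels. Whether the biological replicates came from separate plants is not stated, so p-values measure the spread between these samples only.

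During seed maturation an Arabidopsis embryo first fills with storage proteins (cruciferins, vicilin-type cupins, 2S albumins) and with oil packed in oleosin-coated bodies, and then accumulates LEA (late embryogenesis abundant) proteins that are known for protecting cells during drying. LEC1 acts high in the regulatory network of maturation, upstream of ABI3, FUS3 and the bZIP factors that bind storage protein promoters. Embryos of lec1 mutants are known to be intolerant of drying and to take on traits of seedlings, such as trichomes on cotyledons and an active shoot apex. Germination and seedling growth use a different set of genes, among them those for wall-loosening enzymes, the glyoxylate cycle and the ER bodies of seedling epidermis. The question addressed by the lec1-1 step is which genes of maturation and of germination still rise between the 2 stages.

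Values are Affymetrix signals, scaled to a stated target of 500 on all the arrays used here other than the lec1-1 globular-stage ones, whose labels state no target. Differences are given as log2(signal + 50) with a moderated standard error from limma (n = 2 arrays per group). A gene is said to have risen or fallen only if its limma adjusted p was below 0.05. Where both arrays of a group lay under a signal of 100, the fold is a bound, written "at least". The 4 lec1-1 arrays had median signals of 189.35 to 217.4, and 59.7% to 66.4% of their probe sets reached 100. Replicate arrays correlated, on the log2 scale, at 0.955 in lec1-1 mature green seed, 0.975 in lec1-1 cotyledon-stage seed, 0.945 in WT mature green seed and 0.98 in WT cotyledon-stage seed. The labels of none of the 4 lec1-1 arrays state an array lot, whereas all 4 WT arrays of these stages have one, so an effect of the lot on a comparison of genotypes cannot be told apart from one of the genotype.

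The 2 WT mature green arrays differed from each other on late genes. Among 294 probe sets higher in WT post-mature green than in WT mature green seed, 156 were at least 2-fold higher on WT mature green replicate 1 than on replicate 2, and 6 were at least 2-fold lower. The lec1-1 mature green arrays differed less on these probe sets, with 17 at least 2-fold higher on replicate 1 and 8 at least 2-fold higher on replicate 2.

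Between the cotyledon and the mature green stage, 6750 of 18459 tested probe sets (36.6%) changed in lec1-1 seed by limma, 3462 upward (18.8%) and 3288 downward (17.8%). Of the probe sets that rose, 795 rose at least 4-fold, and 467 of those had both cotyledon-stage arrays under 100. In WT seed 6017 probe sets changed (32.6%), with 2653 risen (14.4%) and 3364 fallen (18.2%). Of the lec1-1 rises, 1375 also rose in WT seed, which is 39.7% of the lec1-1 rises and 51.8% of the WT rises. Of the lec1-1 falls, 1602 also fell in WT seed, or 48.7% of the lec1-1 falls and 47.6% of the WT falls. The lec1-1 step differed from the WT step for 3414 probe sets (18.5%), with 1971 more positive in lec1-1 (10.7%) and 1443 more negative (7.82%). Opposite calls were made for 353 probe sets that rose in lec1-1 and fell in WT seed, and for 133 that did the reverse. The difference of steps passed for all of these. Passing steps of opposite sign bring this about by themselves, so it is not a separate result.

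**Figure D1:**
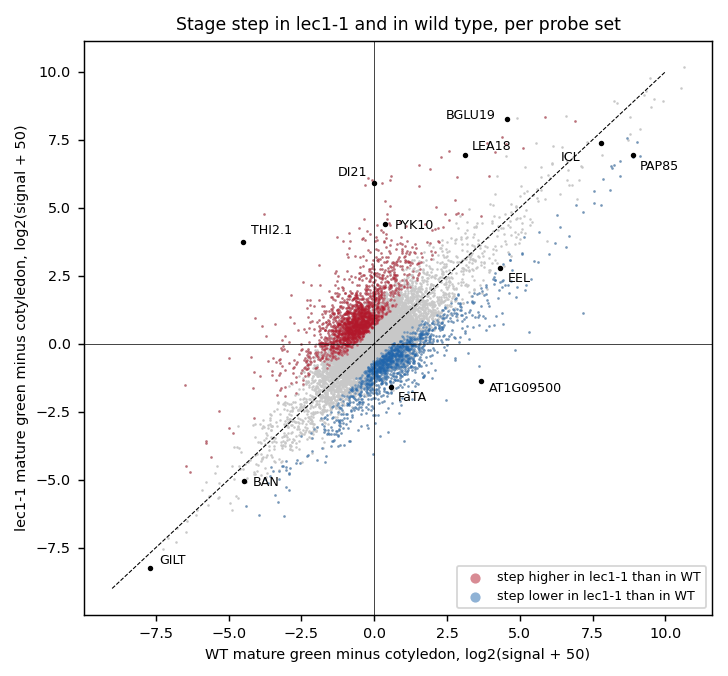
Each point is 1 of 18459 probe sets, with its lec1-1 step on the vertical axis and its WT step on the horizontal axis, both as mature green minus cotyledon stage in log2(signal + 50). Red and blue mark steps that were more positive (1971) or more negative (1443) in lec1-1 by limma, and the dashed line marks equal steps. PAP85 and EEL lie below that line, whereas THI2.1, DI21, PYK10, LEA18 and BGLU19 lie above it, and GILT and BAN lie low in both genotypes.

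Storage protein genes were among the steepest rises of lec1-1 seed. Of 15 genes in the list, 7 were named on the array and all 7 were tested, of which 4 rose and 2 fell, beside 18.8% and 17.8% of all tested probe sets. The median step of the 7 was 2.80 in lec1-1 and 2.83 in WT seed, beside 0.03 and -0.04 over all tested probe sets.

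AT2G28490, which encodes a vicilin-type cupin, had signals of 20995.1 and 20637.2 in lec1-1 mature green seed, against 27.1 and 3.8 in lec1-1 cotyledon-stage seed. Both cotyledon-stage arrays lay under 100, and the rise was at least 208-fold (8.34 ± 0.23 log2, limma adjusted p = 1.1e-14). In WT seed the signals were 53749.2 and 47486.0 at the mature green stage against 98.8 and 40.1 at the cotyledon stage, and the steps did not pass as different (-0.43 ± 0.33, limma adjusted p = 0.41). AT1G03890, of the 12S cruciferin type, had 12215.7 and 12273.8 in lec1-1 mature green seed against 12.6 and 34.3 in lec1-1 cotyledon-stage seed, a rise of at least 122-fold (7.40 ± 0.25). Its WT mature green arrays, at 52489.1 and 39562.1, lay above both lec1-1 mature green arrays, and its WT cotyledon-stage arrays had 31.7 and 42.6. The lec1-1 step was smaller than the WT step by -1.63 ± 0.36 log2 (limma adjusted p = 0.0032), a difference that did not pass with an offset of 1 in place of 50.

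PAP85, a vicilin-like 7S globulin gene, had 14539.2 and 14947.3 in lec1-1 mature green seed against 64.0 and 78.4 in lec1-1 cotyledon-stage seed. The rise was at least 147-fold (6.93 ± 0.27, limma adjusted p = 3.9e-13). WT seed had 54521.2 and 44194.8 at the mature green stage against 84.3 and 31.3 at the cotyledon stage, so that the lec1-1 step was smaller by -1.94 ± 0.38 (limma adjusted p = 0.0012). The cupin gene AT2G18540 rose by 2.80 ± 0.41 in lec1-1 and by 2.74 ± 0.41 in WT seed.

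Other cupin genes did not share the steep rise. AT4G36700 had 2089.1 and 3497.2 in lec1-1 mature green seed against 1222.3 and 1452.5 in lec1-1 cotyledon-stage seed, which did not pass (0.99 ± 0.45, limma adjusted p = 0.097), although the arrays of the stages did not overlap. It had 32859.1 and 32900.8 in WT mature green seed against 4301.7 and 4865.1 in WT cotyledon-stage seed. The difference of steps (-1.84 ± 0.64) did not pass either (limma adjusted p = 0.053). AT1G07750 fell in both genotypes, by 3.16 ± 0.20 log2 in lec1-1 and by 1.68 ± 0.20 in WT seed, and AT2G28680, which fell by 1.06 ± 0.27 in lec1-1, lay under 100 on all 4 lec1-1 arrays.

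All 4 oil body genes tested (4 of 11 in the list were named on the array) rose in lec1-1 and in WT seed, with median steps of 4.63 and 4.98. OLEO3, a seed oleosin gene, had 6904.9 and 8909.6 in lec1-1 mature green seed against 1510.2 and 1434.1 in lec1-1 cotyledon-stage seed, a 5.19-fold rise (2.38 ± 0.56, limma adjusted p = 0.0024). Its WT arrays had 57360.4 and 54787.1 at the mature green stage against 8537.5 and 5690.3 at the cotyledon stage. Every WT array lay above the lec1-1 arrays of its stage. The oleosin family gene AT3G01570 had 9492.9 and 15541.4 against 281.4 and 267.6 in lec1-1 mature green and cotyledon-stage seed, a 37.6-fold rise (5.23 ± 0.35). AT2G25890, another oleosin gene, had 4234.5 and 4833.2 in lec1-1 mature green seed against 30.2 and 90.0 in lec1-1 cotyledon-stage seed, a rise of at least 45.2-fold. Its WT mature green arrays were far apart, at 6780.0 and 2228.0. AT3G18570 had 1265.6 and 1570.3 in lec1-1 mature green seed against 41.7 and 38.5 in lec1-1 cotyledon-stage seed (4.02 ± 0.31). For none of the 4 did the difference of steps pass by limma (adjusted p from 0.15 to 0.66).

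**Figure D2:**
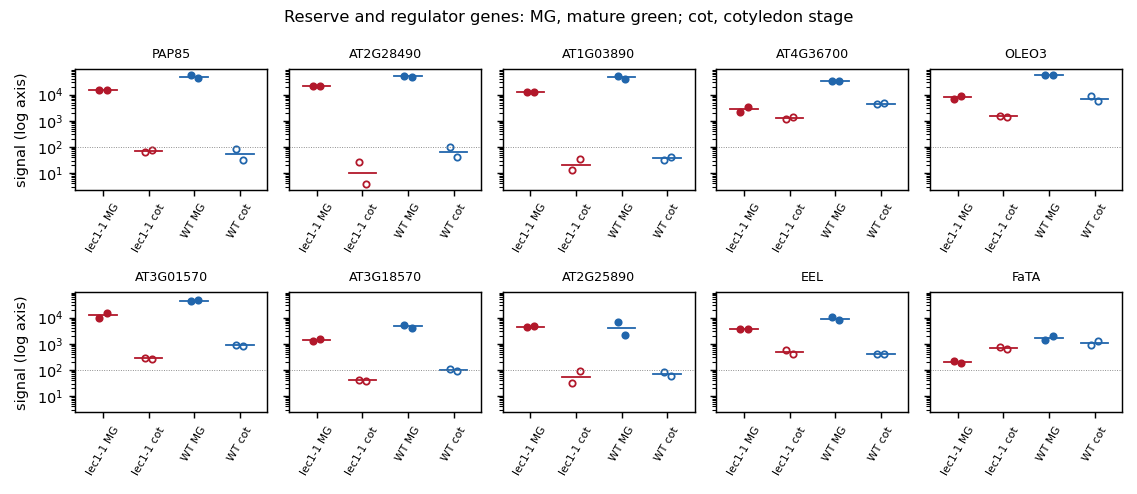
Signals per array on a log axis for 10 genes, with lec1-1 in red, WT in blue, mature green arrays (MG) filled and cotyledon-stage arrays (cot) open. Short lines are geometric means of 2 arrays and the dotted line marks a signal of 100. PAP85, AT2G28490 and AT1G03890 lie below 100 at the cotyledon stage in both genotypes, and FaTA is lower in lec1-1 mature green seed (219.6 and 184.5) than in lec1-1 cotyledon-stage seed (747.8 and 657.1).

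Regulators and enzymes of oil synthesis were thinly covered, with 3 of 22 seed regulators and 3 of 20 oil synthesis genes named and tested. EEL, a bZIP factor that binds ABA-responsive elements, had 3507.8 and 3759.4 in lec1-1 mature green seed against 579.4 and 391.9 in lec1-1 cotyledon-stage seed, a rise of 2.80 ± 0.22 (limma adjusted p = 1e-08). WT seed had 10639.7 and 7905.5 at the mature green stage against 410.0 and 412.3 at the cotyledon stage, and the lec1-1 step was smaller by -1.52 ± 0.32 (limma adjusted p = 0.0023). BZIP53, a bZIP partner in storage gene activation, had 2269.2 and 1725.4 against 2372.9 and 2497.7 in lec1-1 seed and did not pass (-0.29 ± 0.18). BBM, an AP2-type embryo regulator, stayed under 30 on all 4 lec1-1 arrays, while WT mature green arrays had 216.4 and 285.3.

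FaTA, an acyl-ACP thioesterase that releases fatty acids from the plastid, fell by 1.58 ± 0.22 in lec1-1 (limma adjusted p = 1.6e-05). It had 1351.9 and 1914.3 in WT mature green seed against 897.6 and 1288.3 in WT cotyledon-stage seed, and the steps differed by -2.14 ± 0.32 (limma adjusted p = 0.00011). AT3G02630, a stearoyl-ACP desaturase gene, moved in opposite directions. It had 824.3 and 990.6 in lec1-1 mature green seed against 1591.3 and 1441.5 in lec1-1 cotyledon-stage seed, and 4470.5 and 4895.7 in WT mature green seed against 2096.9 and 1950.3 in WT cotyledon-stage seed. Its step was -0.71 ± 0.16 in lec1-1 and 1.19 ± 0.16 in WT seed, a difference of -1.90 ± 0.22 (limma adjusted p = 1.1e-05). FATB, the other thioesterase type, rose by 0.73 ± 0.19 in lec1-1, a call that was lost without lec1-1 mature green replicate 2 (0.59, limma adjusted p = 0.0552).

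Most LEA genes rose in lec1-1 seed. Of 45 genes, 31 were named on the array and 27 were tested, of which 21 rose and 1 fell, beside 18.8% and 17.8% of all tested probe sets. The median step was 4.24 in lec1-1 and 1.81 in WT seed, where 14 rose and 2 fell (beside 14.4% and 18.2% of all tested). The difference of steps was positive for 13 and negative for 0, beside 10.7% and 7.82% of all tested. That count ranged from 8 to 14 over the alternative settings, and it was 9 without WT mature green replicate 2. For 25 of the 27, WT mature green replicate 1 lay above replicate 2, by at least 2-fold for 16, while 15 of 27 were higher on lec1-1 mature green replicate 1.

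For several LEA genes the steps of the 2 genotypes did not pass as different. AT3G02480 had 55571.6 and 40289.6 in lec1-1 mature green seed against 36.7 and 73.9 in lec1-1 cotyledon-stage seed, a rise of at least 473-fold (8.84 ± 0.81, limma adjusted p = 6.2e-08). The WT mature green arrays had 33634.4 and 14390.8 and the WT cotyledon-stage arrays 26.5 and 12.0, and the steps did not pass as different (limma adjusted p = 0.81). AT3G15670 had 15738.9 and 21744.7 in lec1-1 mature green seed against 7.2 and 4.5 in lec1-1 cotyledon-stage seed, a rise of at least 185-fold. Here the lec1-1 mature green arrays lay between or just above the WT mature green arrays, which were far apart at 20214.6 and 2035.2. AtLEA4-1 rose at least 121-fold in lec1-1 (11952.4 and 12202.8 against 39.0 and 6.6) and at least 104-fold in WT seed (15135.9 and 7187.8 against 16.6 and 15.9). The dehydrin gene LEA rose by 6.92 ± 0.26, with 6109.1 and 8311.3 in lec1-1 mature green seed against 7.6 and 11.1 in lec1-1 cotyledon-stage seed, and its WT mature green arrays were higher at 23832.4 and 15533.7.

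Other LEA genes rose further in lec1-1 than in WT seed. LEA18 had 21383.3 and 21006.5 in lec1-1 mature green seed against 112.3 and 140.1 in lec1-1 cotyledon-stage seed, a 121-fold rise (6.92 ± 0.43). Both lec1-1 mature green arrays lay above both WT mature green arrays, which had 2286.2 and 609.6 against 97.9 and 92.4 in WT cotyledon-stage seed, and the lec1-1 step was larger by 3.82 ± 0.60 (limma adjusted p = 0.00021). In post-mature green seed LEA18 had 18049.0 and 14956.5 in lec1-1 and 21811.7 and 17237.1 in WT. AT4G36600 had 2825.2 and 2324.9 in lec1-1 mature green seed against 37.2 and 3.1 in lec1-1 cotyledon-stage seed, a rise of at least 25.6-fold, while WT seed had 152.7 and 10.3 against 39.5 and 30.2. Its steps differed by 4.88 ± 0.59 (limma adjusted p = 1.7e-05), and WT post-mature green seed had 1425.7 and 1126.6.

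DI21, a drought-induced LEA gene, differed from both of these. It had 14633.6 and 10194.2 in lec1-1 mature green seed against 190.7 and 126.9 in lec1-1 cotyledon-stage seed, a 59.4-fold rise (5.89 ± 0.42, limma adjusted p = 1.8e-09). WT seed had 171.2 and 453.3 at the mature green stage against 312.6 and 258.6 at the cotyledon stage, where the arrays of the stages overlapped, and the steps differed by 5.90 ± 0.59 (limma adjusted p = 2.1e-06). Unlike LEA18, DI21 stayed at 218.5 and 277.9 in WT post-mature green seed, and lec1-1 post-mature green seed had 18100.9 and 11778.9. WT seedlings had 690.7 and 513.9.

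LTI30, a cold-induced dehydrin gene, rose by 1.75 ± 0.30 in lec1-1 seed, with 504.0 and 297.8 against 83.7 and 77.4, while WT seed had 386.1 and 253.1 against 531.6 and 353.7. AT4G39130, another dehydrin gene, rose by 3.40 ± 0.40, with 723.8 and 397.3 in lec1-1 mature green seed against 6.9 and 4.5 in lec1-1 cotyledon-stage seed. AT2G44060 was the only tested LEA gene that fell (-0.89 ± 0.16), and it fell in WT seed as well (-1.30 ± 0.16). COR47, AT1G54410, AT2G03850, M10 and M17 did not pass in lec1-1, with steps of -0.37 to 1.02. M10 had 167.9 and 5.4 in lec1-1 mature green seed and 215.3 and 6.3 in WT mature green seed, so that 1 array of each pair carried the signal.

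**Figure D3:**
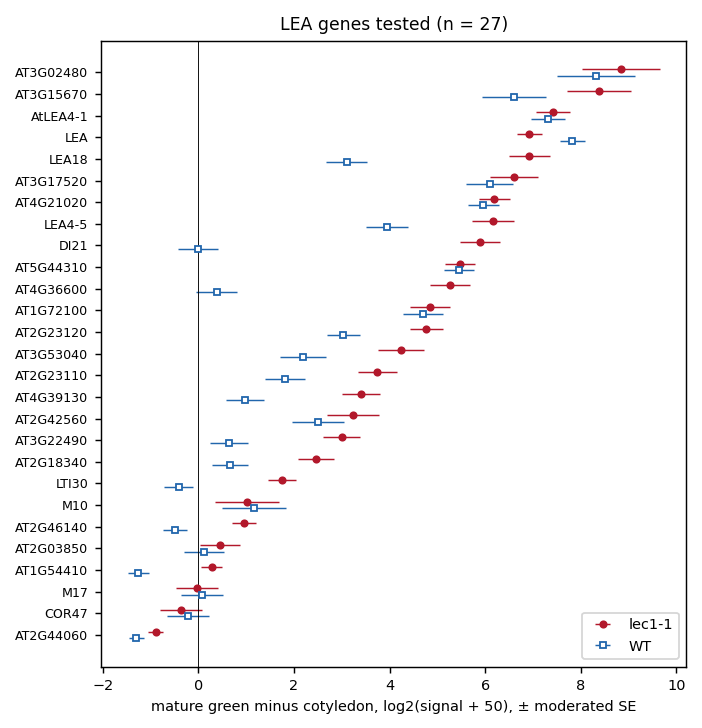
Steps from the cotyledon to the mature green stage of the 27 tested LEA genes, as log2(signal + 50) with moderated standard errors (n = 2 arrays per group), for lec1-1 (red circles) above WT (blue squares) in each row. The lec1-1 step lies well to the right of the WT step for LEA18, DI21, AT4G36600 and LTI30, and the steps of AT3G02480, AtLEA4-1, AT5G44310 and AT1G72100 nearly coincide.

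Among probe sets that name 1 gene, 8 of the 14 largest rises of lec1-1 seed were of genes outside the lists. The neighbouring loci AT1G14950, AT1G14940 and AT1G14930, of the major latex protein family, rose by 8.94 ± 0.51, 8.30 ± 0.83 and 7.37 ± 0.83. AT1G14950 had 40730.2 and 29952.3 in lec1-1 mature green seed against 36.4 and 9.1 in lec1-1 cotyledon-stage seed, and 39329.8 and 6991.1 in WT mature green seed. AT1G14930 had 3869.6 and 94.1 in WT mature green seed. Cross-hybridization between these related copies cannot be told apart from separate rises. BGLU19, a beta-glucosidase gene, had 19315.2 and 16184.0 in lec1-1 mature green seed against 12.1 and 3.6 in lec1-1 cotyledon-stage seed, and 4106.7 and 326.4 against 2.8 and 3.4 in WT seed. Its rise was at least 177-fold in lec1-1 and at least 11.6-fold in WT seed, and the steps differed by 3.71 ± 0.85 (limma adjusted p = 0.0048), a difference that did not pass with an offset of 1. In WT post-mature green seed it reached 47302.7 and 47646.7.

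AT1G04560, of the AWPM-19 membrane protein family, rose by 7.70 ± 0.27, AT2G15010, of the thionin family, by 7.50 ± 0.31, and AT5G66780 by 7.37 ± 0.46. AT3G54940, a papain-type cysteine protease gene, had 11100.3 and 11563.5 in lec1-1 mature green seed against 14.4 and 24.9 in lec1-1 cotyledon-stage seed. The WT arrays had 27610.3 and 18481.3 at the mature green stage and, unlike lec1-1, already 1049.6 and 814.9 at the cotyledon stage. The lec1-1 step was larger by 2.82 ± 0.38 (limma adjusted p = 4.3e-05) although both WT mature green arrays were the higher ones.

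Sets of genes were also chosen on WT arrays alone, without use of any lec1-1 array. Each set held probe sets at least 4-fold apart between stages, with no overlap of the WT arrays. Of 626 probe sets higher in WT mature green than in WT cotyledon-stage seed, 550 rose in lec1-1 seed (87.9%, beside 18.8% of all tested) and 3 fell, with a median step of 2.38. Of the 509 probe sets lower in WT mature green seed, 426 fell in lec1-1 seed (83.7%, beside 17.8%) and 16 rose. EXPB1, a beta-expansin gene, and AT1G09500, of the cinnamyl-alcohol dehydrogenase type, were among the 3 that fell. The fall of EXPB1 (-0.96 ± 0.35) was lost with any 1 lec1-1 array of these stages left out. It was also lost with 75th percentile scaling, an offset of 1 or no filter on low values. The fall of AT1G09500 was lost with an offset of 1. THI2.1, the glutamate receptor-like gene GLR3.3 and the subtilase gene SBT1.3 were the named genes among the 16 that rose. The rise of SBT1.3 (0.82 ± 0.30) was lost without lec1-1 mature green replicate 2 and without either lec1-1 cotyledon array, and also with an offset of 1, a floor of 100 or no trend, and that of GLR3.3 (1.37 ± 0.30) with an offset of 1.

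Another set held 294 probe sets at least 4-fold higher in WT post-mature green than in WT mature green seed. Of these, 191 rose in the lec1-1 step (65.0%, beside 18.8%) and 12 fell, with a median of 1.58. Of the same 294, 143 rose and 22 fell in the WT step (beside 14.4% and 18.2% of all tested), with a median of 1.03. This set shares 89 probe sets with the mature green set and uses the WT mature green arrays as its lower group, so the genotypes were not compared on it. The named genes of this set that fell in lec1-1 included the protease inhibitor gene AT2G38900 (-2.25 ± 0.30) and NET3A, an actin-binding NET family gene (-1.84 ± 0.27). NET3A had 561.7 and 293.7 in WT mature green seed.

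Of 793 probe sets higher in WT seedlings than in each of WT cotyledon-stage, mature green and post-mature green seed, 326 rose in the lec1-1 step (41.1%, beside 18.8% of all tested) and 42 fell (beside 17.8%). Their median step was 0.71, and 114 had a log2 difference of 2 or more. In the WT step 56 of the 793 rose and 139 fell, and the median was -0.06. The rule that chose this set uses the WT cotyledon-stage and mature green arrays as lower groups, which restricts the WT step. The genotypes were therefore not compared on it. Genes with a low signal at the cotyledon stage are also favoured by the rule, which can leave less room for a fall in lec1-1. The small share that fell in lec1-1 is thus not a result about these genes. WT seed at 24 hours was not used to choose this set, and some members were high there, such as XTH16, with 877.4 and 1464.5. The other 425 did not pass in the lec1-1 step.

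**Figure D4:**
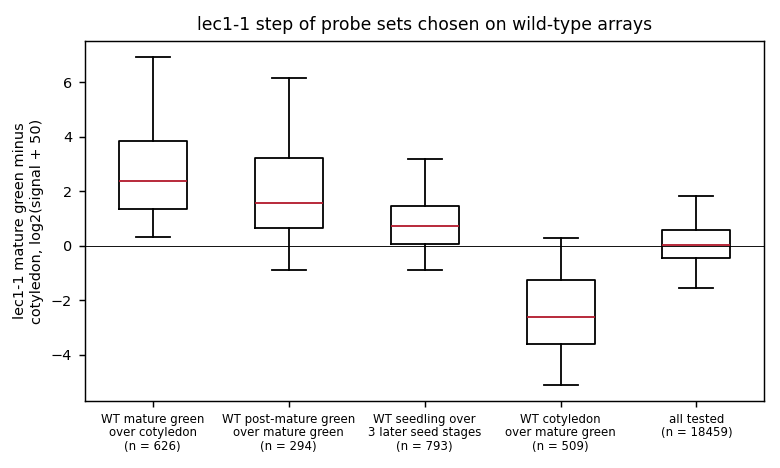
The lec1-1 step (mature green minus cotyledon stage, log2(signal + 50)) of probe sets chosen on WT arrays only, with boxes from the 25th to the 75th percentile, whiskers at the 5th and 95th percentiles and red medians. Medians are 2.38, 1.58, 0.71 and -2.63 for the sets, from left to right, and 0.03 over all 18459 tested probe sets.

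The genes of ER bodies, which store beta-glucosidases in the epidermis of seedlings, and their jacalin-type lectin partners rose in lec1-1 seed. Of 15 genes in the list 6 were tested, and 5 rose in lec1-1 (beside 18.8% of all tested) while 0 rose and 1 fell in WT seed (beside 14.4% and 18.2%). The 5 that rose all had a positive difference of steps (beside 10.7% of all tested), a count that ranged from 3 to 6 over the alternative settings and that included NAI1, whose difference (1.73 ± 0.53) did not pass with every array left out in turn. Of the 6 tested genes, 5 belonged to the WT seedling set.

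PYK10, the main ER body beta-glucosidase, had 8510.2 and 7278.2 in lec1-1 mature green seed against 387.6 and 273.0 in lec1-1 cotyledon-stage seed, a 21.1-fold rise (4.40 ± 0.41, limma adjusted p = 8.3e-08). WT seed had 60.1 and 64.9 at the mature green stage against 38.7 and 34.7 at the cotyledon stage, all under 100, and the steps differed by 4.02 ± 0.58 (limma adjusted p = 9.3e-05). In lec1-1 seed at 24 hours PYK10 stood at 37.6 and 38.6, at the globular stage at 19.4 and 249.5, and at the post-mature green stage at 8042.5 and 8680.6. WT seedlings had 17084.3 and 18279.4.

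JAL34, a jacalin-related lectin gene, had 5168.8 and 4078.3 in lec1-1 mature green seed against 464.6 and 391.4 in lec1-1 cotyledon-stage seed. It fell in WT seed, which had 64.7 and 83.9 at the mature green stage against 196.5 and 172.4 at the cotyledon stage, so that the steps had opposite signs (3.28 ± 0.32 in lec1-1 and -0.92 ± 0.32 in WT, difference 4.2 ± 0.45, limma adjusted p = 4e-06). NAI2, needed for forming ER bodies, had 705.7 and 607.0 in lec1-1 mature green seed against 60.3 and 84.5 in lec1-1 cotyledon-stage seed, a rise of at least 6.54-fold. JAL22 rose at least 5.76-fold and NAI1, the bHLH factor that controls PYK10 and NAI2, at least 3.20-fold. On all WT seed arrays of these stages NAI2, JAL22 and NAI1 lay under 100. JAL33 had 227.5 and 204.3 against 77.4 and 93.0 in lec1-1 and did not pass (limma adjusted p = 0.059), although it did under 3 of the alternatives.

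Several genes from the list of wall-loosening genes of germination also rose in lec1-1 seed, although not all of them mark seedlings in these data. Of the 7 tested, 3 belonged to the WT seedling set (EXPA8, XTH16 and XTH19), and EXPA15 belonged to the WT mature green set. Of 20 genes 7 were tested, 5 rose and 1 fell in lec1-1 (beside 18.8% and 17.8% of all tested), and 2 rose in WT seed (beside 14.4%). XTH16, a xyloglucan endotransglucosylase/hydrolase gene, had 1465.4 and 2055.6 in lec1-1 mature green seed against 34.5 and 45.9 in lec1-1 cotyledon-stage seed, a rise of 4.31 ± 0.35 log2. WT seed had 82.7 and 249.3 against 23.0 and 70.8, and the steps differed by 3.22 ± 0.49 (limma adjusted p = 0.00015). XTH16 was also high in seed at 24 hours, with 1129.2 and 1074.4 in lec1-1 and 877.4 and 1464.5 in WT, and in WT seedlings, with 1487.0 and 1537.6.

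XTH19 had 944.4 and 419.5 in lec1-1 mature green seed against 43.8 and 45.3 in lec1-1 cotyledon-stage seed, and at most 46.1 on the 4 WT arrays of these stages (difference of steps 3.23 ± 0.50). The expansin gene EXPA20 rose 4.93-fold in lec1-1 (638.0 and 718.1 against 87.3 and 108.2) with a difference of steps of 2.45 ± 0.37, although WT seedlings had only 135.9 and 121.6. These 3 differences passed under every alternative run. EXPA15 rose in both genotypes, by 2.44 ± 0.36 in lec1-1 and 2.04 ± 0.36 in WT seed, EXPA9 rose by 1.34 ± 0.37 in lec1-1 and EXPA8 stayed under 50 on all 8 arrays. XTH33 fell by 0.94 ± 0.36 in lec1-1 with a limma adjusted p of 0.047, a call that was lost with any 1 array left out, and the EXPA9 call was lost without lec1-1 mature green replicate 1 or lec1-1 cotyledon replicate 1 and with a floor of 100.

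**Figure D5:**
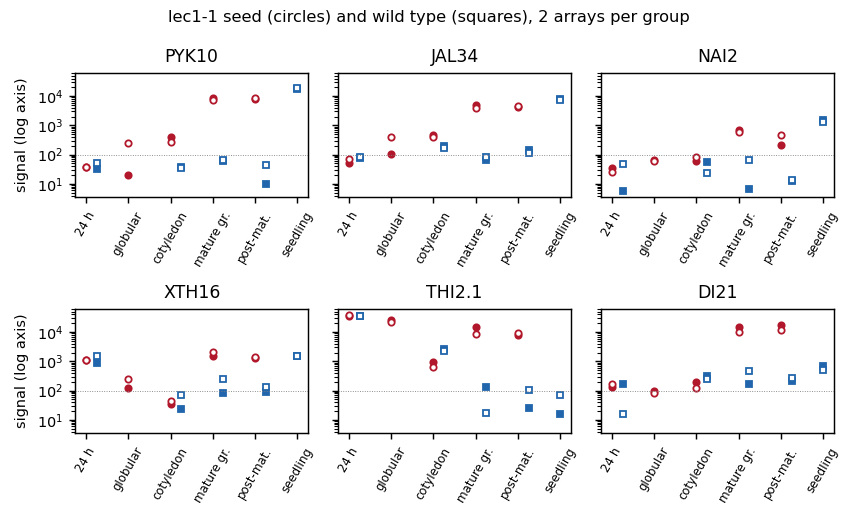
Signals per array on a log axis for PYK10, JAL34, NAI2, XTH16, THI2.1 and DI21 over lec1-1 seed stages (red circles) with WT 24-hour, cotyledon, mature green and post-mature green seed and WT seedlings (blue squares), replicate 1 filled and replicate 2 open. All 6 genes are higher in lec1-1 mature green than in lec1-1 cotyledon-stage seed and stay high at the post-mature green stage, and the WT seed arrays of those late stages lie below the lec1-1 ones.

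Reserve mobilisation genes did not move as a group, with 1 of 3 tested members risen and 1 fallen (19 in the list). ICL, isocitrate lyase of the glyoxylate cycle that turns oil into sugar in seedlings, had 15139.4 and 11437.9 in lec1-1 mature green seed against 7.6 and 59.9 in lec1-1 cotyledon-stage seed, a rise of at least 132-fold (7.38 ± 0.32, limma adjusted p = 1.8e-12). ICL rose in WT seed too, with 17537.0 and 8246.2 against 6.4 and 3.5 (7.78 ± 0.32), and the steps did not pass as different (-0.41 ± 0.45, limma adjusted p = 0.59). AIM1, of peroxisomal beta-oxidation, fell by 0.75 ± 0.15 in lec1-1. The oil body lipase gene SDP1 had 743.8 and 530.3 against 528.1 and 471.5 in lec1-1 and did not pass (0.31 ± 0.23).

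Nuclear genes of photosynthesis fell or did not pass in lec1-1 seed. Of 10 tested (53 in the list), 0 rose and 6 fell in lec1-1 (beside 18.8% and 17.8% of all tested), with a median of -0.92, while 2 rose and 2 fell in WT seed (beside 14.4% and 18.2%). Of the 10, 6 belonged to the WT seedling set. Each of the 10 was higher on WT mature green replicate 2 than on replicate 1, such as PRK with 6489.0 on replicate 2 and 3530.9 on replicate 1. The WT steps of these genes thus rest on 2 arrays that differ in 1 direction. LHCB4.3, a light-harvesting antenna gene, had 571.3 and 532.4 in lec1-1 mature green seed against 1542.1 and 1432.1 in lec1-1 cotyledon-stage seed, and 3345.7 and 4898.1 against 2632.5 and 2300.8 in WT seed. Its steps had opposite signs and differed by -2.06 ± 0.30 (limma adjusted p = 0.00011). PRK, phosphoribulokinase of the Calvin cycle, fell by 1.09 ± 0.29 in lec1-1 and rose by 0.83 ± 0.29 in WT seed (difference -1.93 ± 0.41), and its lec1-1 fall did not pass without lec1-1 mature green replicate 2. PSAN, a photosystem I subunit gene, fell by 1.69 ± 0.26 in lec1-1.

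THI2.1, a thionin gene of pathogen defence, had the largest positive difference of steps among the genes named by the rule. It had 14634.5 and 8275.9 in lec1-1 mature green seed against 913.2 and 652.2 in lec1-1 cotyledon-stage seed, a 13.4-fold rise (3.75 ± 0.39). In WT seed it fell, with 135.9 and 17 at the mature green stage against 2647.8 and 2273.4 at the cotyledon stage (-4.49 ± 0.39), and the steps differed by 8.24 ± 0.55 (limma adjusted p = 2.3e-08). Over the lec1-1 stages THI2.1 was highest at 24 hours (36492.2 and 38945.4) and lowest at the cotyledon stage, so that the mature green rise followed a low point. WT seed at 24 hours had 35994.9 and 34131.8.

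Of 8 tested defence and senescence genes (16 in the list), 3 rose and 1 fell in lec1-1, beside 18.8% and 17.8% of all tested. SAG29, a SWEET-type sugar transporter gene, rose by 2.91 ± 0.44 in lec1-1 and 3.65 ± 0.44 in WT seed. BETA-VPE, the vacuolar processing enzyme that cleaves storage proteins, had 5789.8 and 7328.0 in lec1-1 mature green seed against 379.7 and 388.3 in lec1-1 cotyledon-stage seed, and rose in WT seed to 16753.1 and 11010.5, against 413.5 and 272.0. Its smaller lec1-1 step (-1.22 ± 0.32, limma adjusted p = 0.011) did not pass with every array left out in turn. ALPHA-VPE had 154.8 and 277.6 against 297.2 and 218.5 in lec1-1, where the stages overlapped, and rose by 2.04 ± 0.41 in WT seed. GAMMA-VPE fell by 0.86 ± 0.29 in lec1-1, a call that was lost with each of 3 arrays left out.

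Other genes with a larger step in lec1-1 than in WT seed came from several families. AT2G47780, of the rubber elongation factor family, had 5529.7 and 4942.4 in lec1-1 mature green seed against 17.9 and 72.7 in lec1-1 cotyledon-stage seed, and 104.6 and 56.5 against 129.8 and 95.6 in WT seed (difference of steps 6.19 ± 0.36, limma adjusted p = 3.8e-09). AT5G19100, an aspartyl protease family gene, had 6271.0 and 3360.1 against 5.8 and 41.2 in lec1-1, beside 57.3 and 108.1 against 95.4 and 78.5 in WT seed (difference 6.09 ± 0.54). AT4G30650, of the low-temperature-responsive RCI2 membrane protein type, rose at least 52.8-fold in lec1-1 and 1.55 ± 0.43 log2 in WT seed (difference 5.01 ± 0.60).

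The GDSL lipase gene AT1G54020 had 1598.0 and 1738.3 in lec1-1 mature green seed against 6.5 and 40.2 in lec1-1 cotyledon-stage seed, and under 25 on all 4 WT arrays (difference 4.93 ± 0.52). Like THI2.1, it was also high in 24-hour seed of both genotypes, at 1531.3 and 1673.6 in lec1-1 and 1537.3 and 2105.9 in WT, and at the lec1-1 globular stage, at 1910.1 and 3513.6. AT5G23830, of the MD-2-related lipid recognition family, had 2105.4 and 671.1 against 13.5 and 7.4 in lec1-1 and belonged to the WT seedling set (difference 3.82 ± 0.65). The jacalin lectin gene AT3G21380 rose by 7.07 ± 0.95 in lec1-1, but its WT mature green arrays had 2619.5 and 8.5, and its difference of steps (4.49 ± 1.34) did not pass with every array left out in turn.

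In the other direction, some genes that rose in WT seed did not rise in lec1-1 seed. AT1G09500 had 172.4 and 200.8 in lec1-1 mature green seed against 592.2 and 541.7 in lec1-1 cotyledon-stage seed, while WT seed had 4549.0 and 2923.0 against 252.4 and 223.7 (difference of steps -5.07 ± 0.45, limma adjusted p = 5.6e-07). AT3G25160, of the ER lumen retention receptor family, had 68.0 and 115.5 against 188.5 and 207.5 in lec1-1 and did not pass, and rose by 3.58 ± 0.35 in WT seed (difference -4.41 ± 0.50). AT3G17130, a pectin methylesterase inhibitor family gene, had 270.8 and 472.2 against 197.0 and 201.3 in lec1-1, beside 7464.6 and 3801.6 against 255.3 and 159.9 in WT seed (difference -3.69 ± 0.44). BGLU29, a beta-glucosidase gene, fell by 2.02 ± 0.24 in lec1-1 and rose by 1.28 ± 0.24 in WT seed, and EXPB1, whose lec1-1 fall is described above as lost with any 1 array left out, rose by 2.09 ± 0.35 in WT seed.

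Genes that fell in lec1-1 but not in WT seed included AT2G41990, with 137.4 and 194.3 in lec1-1 mature green seed against 3362.1 and 3620.2 in lec1-1 cotyledon-stage seed, and 1821.2 and 3146.4 against 2504.0 and 2385.6 in WT seed (difference -4.02 ± 0.33). AT3G15630 fell by 3.24 ± 0.31 and the glycosyltransferase gene UGT76E2 by 2.54 ± 0.36 in lec1-1, and neither passed in WT seed.

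The steepest falls of named genes in lec1-1 seed also occurred in WT seed. GILT, a gamma-interferon-inducible lysosomal thiol reductase type gene, had 22.5 and 126.8 in lec1-1 mature green seed against 34124.1 and 34220.1 in lec1-1 cotyledon-stage seed (-8.24 ± 0.41, limma adjusted p = 1.7e-11), and it fell by 7.70 ± 0.41 in WT seed. Several genes of pectin modification fell too. The pectin methylesterase inhibitor family genes AT1G56100 and AT4G15750 had lec1-1 steps of -7.55 ± 0.44 and -6.76 ± 0.34, and the pectin methylesterase genes AT5G49180 and AT1G11590 of -5.83 ± 0.18 and -5.61 ± 0.35. For AT5G49180 the lec1-1 fall was steeper than the WT fall by -2.54 ± 0.25 (limma adjusted p = 1.6e-06), with 368.0 and 361.4 in lec1-1 mature green seed and 1597.8 and 2190.6 in WT mature green seed. JMT, jasmonic acid methyltransferase, had 3.0 and 28.7 against 3952.6 and 3859.0 in lec1-1 and fell by 5.94 ± 0.32.

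Most tested seed coat markers fell as well. Of the 4 tested seed coat genes 3 fell in lec1-1 and 1 rose (beside 17.8% and 18.8% of all tested), and 3 fell in WT seed (beside 18.2%). Their summed signal was 10259 and 6940 in lec1-1 mature green seed against 60766 and 65207 in lec1-1 cotyledon-stage seed, and 8457 and 13610 in WT mature green seed against 56564 and 48018 in WT cotyledon-stage seed. BAN, the anthocyanidin reductase of proanthocyanidin synthesis, had 423.5 and 495.0 against 16877.1 and 16687.4 in lec1-1 (-5.05 ± 0.33), and DFR, dihydroflavonol reductase, fell by 4.35 ± 0.26. DELTA-VPE, a processing enzyme of the inner seed coat, fell by 1.88 ± 0.24. For none of the 3 did the steps differ by limma (adjusted p from 0.14 to 0.98). UF3GT, an anthocyanin glycosyltransferase gene, rose by 2.19 ± 0.42 in lec1-1 seed, with 294.0 and 202.1 against 16.1 and 13.3.

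Only 2 endosperm markers were tested. Their summed signal was 192 and 164 in lec1-1 mature green seed against 140 and 79 in lec1-1 cotyledon-stage seed, with IKU2 risen (1.27 ± 0.42, lost under 4 of the alternatives) and AGL62 under 100 on all 4 arrays. ALC, the 1 silique wall marker tested, had 471.1 and 347.1 against 962.6 and 1039.7 (-1.21 ± 0.17). The part of seed coat, endosperm or silique wall RNA in the steps described above was not tested.

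The remaining lists were small. The heat shock protein genes ATHSP22.0 and AT5G37670 did not pass and stayed under 100 on all 4 lec1-1 arrays. Of 3 gibberellin signalling genes, GID1A, a gibberellin receptor gene, had 153.3 and 286.3 against 400.2 and 445.0 in lec1-1 and fell by 0.85 ± 0.24, a call lost without lec1-1 mature green replicate 1 or without lec1-1 cotyledon replicate 2, and SLY1 and GID1B did not pass. TRY, a repressor of trichome formation, had 172.2 and 162.0 in lec1-1 mature green seed against 8.9 and 66.7 in lec1-1 cotyledon-stage seed (1.39 ± 0.42, limma adjusted p = 0.014), and this call was lost without lec1-1 mature green replicate 1 or without lec1-1 cotyledon replicate 1. PRL, an MCM-type replication gene, had 595.2 and 461.3 against 799.2 and 927.6 in lec1-1 and did not pass (-0.67 ± 0.29), and it fell by 2.18 ± 0.29 in WT seed.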

How the data were processed

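Whole-seed RNA was hybridized to ATH1 GeneChips. Per the labels, the deposited intensity values come from Microarray Suite 5.0 of Affymetrix, run by the authors, with a scaling target of 500 (the globular-stage arrays state none). They were used as deposited. Of 22746 probe sets other than the 64 controls, 18459 with a signal of 100 on at least 2 of 20 arrays were tested. Probe sets were named from GEO's platform annotation (13513 named 1 gene, 503 several, 8730 none), with 13436 matched to RefSeq. A model of 10 group means was fitted to log2(signal + 50) with limma 3.58.1 in R 4.3.3 (lmFit, eBayes with trend, 10 residual and 8.64 prior degrees of freedom), two-sided, with Benjamini-Hochberg adjustment over all tested probe sets and a threshold of 0.05, and it was tested on simulated data. The contrasts were the lec1-1 step, the WT step and their difference. "At least" folds divide the geometric mean of the brighter group by 100.

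Among probe sets that name 1 gene, and with no overlap of the lec1-1 arrays, named genes were the 14 largest passing lec1-1 steps each way, the 8 largest passing differences of steps each way, and by list or set up to 4 members of each list with any member called in opposite directions, and up to 5 genes each way from each wild-type set, and other members of a list are given to complete it. The members, the 17 lists and the sets were chosen with earlier results of these data known. Alternatives were 2 other normalizations, 2 treatments of low signals, 2 filters, a fit on the contrast's arrays alone, the replicate number as a block, the stated lot as a covariate, no trend, and each array left out. Whether a lot was stated was the same for both stages of a genotype. The lot covariate could therefore not change a step or a difference of steps, only its standard error, although it is counted among the alternatives. Arrays of the AtGenome1 type and promoter motifs were not analysed here. Deviations of same-numbered arrays of the 2 stages correlated at -0.0416 in lec1-1 and -0.0119 in WT, so the numbers were not taken to pair arrays. The number of arrays limits the precision.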

Additional observations from a re-analysis of the deposited data

Results flagged for a closer look

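The steps of the 2 genotypes differed by limma for 3414 probe sets, and 49 of the 104 genes named by the rule were among them. The rule picks genes partly for large passing steps and differences in these same data. How many of them hold under the alternatives therefore does not measure the stability of all calls. Of these 49 differences, 37 passed with every single array left out and 33 under every alternative. More positive in lec1-1 were THI2.1 (8.24), AT2G47780 (6.19), AT5G19100 (6.09), DI21 (5.90), AT4G30650 (5.01), AT1G54020 (4.93), AT4G36600 (4.88), AT3G21380 (4.49), JAL34 (4.2), PYK10 (4.02), AT5G23830 (3.82), BGLU19 (3.71) and AT1G14930 (3.51). The same held for GLR3.3 (3.45), XTH19 (3.23), XTH16 (3.22), SBT1.3 (2.96), AT3G54940 (2.82), NAI2 (2.66), JAL22 (2.56), EXPA20 (2.45) and PRL (1.51).

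More negative in lec1-1 were AT1G09500 (-5.07), AT3G25160 (-4.41), AT2G41990 (-4.02), AT3G15630 (-3.71), AT3G17130 (-3.69), UGT76E2 (-3.39), BGLU29 (-3.30), AT1G53690 (-3.25), EXPB1 (-3.05), AT5G49180 (-2.54), AT1G70820 (-2.21), AT1G71690 (-2.14), FaTA (-2.14) and LHCB4.3 (-2.06). Smaller values were those of PAP85 (-1.94), PRK (-1.93), AT3G02630 (-1.90), AT5G48540 (-1.71), AT5G37670 (-1.68), AT1G03890 (-1.63), AT4G12890 (-1.54), EEL (-1.52), AT1G07750 (-1.48), GAMMA-VPE (-1.45), AT5G04500 (-1.37), NET3A (-1.30) and BETA-VPE (-1.22).

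The 12 that did not pass with at least 1 array left out were AT1G14930, AT3G21380, AT4G12890, AT5G04500, AT1G71690, AT5G37670, AT5G48540, BETA-VPE, GAMMA-VPE, NET3A, PRL and AT1G70820. AT1G03890, AT1G53690, BGLU19 and NAI2 did not pass with an offset of 1.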

How the results depend on the processing

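With the replicate block, although the pairing is not borne out, 6724 probe sets changed in lec1-1, 6004 in WT seed, and the steps differed for 3420. Leaving out 1 array gave 4955 to 5765 changed probe sets in lec1-1 (2587 to 2973 risen, 2368 to 2792 fallen), 4157 to 5771 in WT seed, and 2305 to 3586 differences of steps, of which 942 to 1471 were negative (942 without WT cotyledon replicate 2 and 950 without lec1-1 cotyledon replicate 2). Without 1 array, 499 to 517 of the mature green set, 169 to 188 of the post-mature green set and 246 to 328 of the seedling set rose, and 395 to 404 of the cotyledon set fell. No call of the 3 contrasts was called in the opposite direction under any alternative run. The named genes were picked partly for large passing steps, so their stability does not stand for that of all calls. Of 93 called named genes, 77 passed the lec1-1 step under all 14 alternatives. Steps that did not pass changed sign when 1 array was left out, with ranges of -0.79 to 0.07 for AT5G37670, -0.97 to 0.24 for COR47, -0.17 to 1.06 for AT2G03850, -0.12 to 0.68 for AT1G54410, -0.04 to 0.88 for GID1B, -0.19 to 0.13 for M17, -0.03 to 0.34 for EXPA8, -0.83 to 0.05 for SAG101 and -0.58 to 0.10 for ALPHA-VPE. AT1G54410 also did with quantile normalization (-0.17) and M17 with an offset of 1 (0.40). The cause of these changes was not tested. Some steps that did not pass did so under an alternative: without lec1-1 mature green replicate 2, M10 (2.00, limma adjusted p = 0.0488) and AT1G54410; without replicate 1, and with the replicate block, AT3G17130; without lec1-1 cotyledon replicate 1, SLY1 (-0.99, limma adjusted p = 0.00584); with a floor of 100 or only the contrast's arrays, JAL33, AT4G36700 and PRL (JAL33 also with 75th percentile scaling); and with quantile normalization AT3G25160. Signals under 100 set the limit for genes that are dim at a stage.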

Other observations

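Genes encoded in the plastid genome rose together in lec1-1 seed, a family chosen after its values were seen. Of 69 tested probe sets, 64 rose and 0 fell in lec1-1 (beside 18.8% and 17.8% of all tested), with a median step of 2.42, beside 0.03 over all. In WT seed 34 rose and 2 fell (beside 14.4% and 18.2%), with a median of 0.96, beside -0.04. The difference of steps was positive for 31 (beside 10.7%) and negative for 0. Most of the 69 were higher on lec1-1 mature green replicate 1 than on replicate 2, while a few, such as rpl14, were higher on replicate 2. The probe sets thus share a difference between these arrays and are not separate rises. The gene rpoA, a subunit of the plastid RNA polymerase, had 16128.7 and 9308.4 in lec1-1 mature green seed against 1137.1 and 1709.4 in lec1-1 cotyledon-stage seed, while WT seed had 1055.5 and 1413.3 against 1622.2 and 1404.1, a difference of steps of 3.38 ± 0.40 (limma adjusted p = 1.3e-05). The ribosomal protein gene rpl14 rose by 3.46 ± 0.34 in lec1-1 and had 425.3 and 582.2 in WT mature green seed against 521.4 and 655.2 in WT cotyledon-stage seed. The photosystem I gene psaB rose in both genotypes, by 2.59 ± 0.28 in lec1-1 and 1.70 ± 0.28 in WT seed, and its steps did not pass as different (limma adjusted p = 0.13). The nuclear photosynthesis genes of the same arrays fell or did not pass.

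Of 20 mitochondrion-encoded probe sets with names of the nad, cox or ccb type, 7 rose and 0 fell in lec1-1 (beside 18.8% and 17.8% of all tested). In WT seed 7 rose (beside 14.4%), and the medians were 0.72 in lec1-1 and 0.84 in WT. Only these name types were counted, and nad1 and nad5 are each present more than once. Of 41 UDP-glycosyltransferase genes of the UGT type, 14 rose and 8 fell in lec1-1, and of 24 serine carboxypeptidase-like genes 2 rose and 7 fell, beside 18.8% and 17.8% of all tested. These families too were chosen after their values were seen.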
